A study of Canis lupus familiaris with 6 samples.

Results

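The carriers of the mitochondrial inner membrane and the machinery that imports proteins into mitochondria were examined in Ras-transformed dog kidney epithelial cells, grown alone or among normal cells. The genes were those that the array names SLC25A, TIMM or TOMM, together with UCP2 and UCP3, and each gene was read at its probe with the highest mean signal. The rule found 58 genes among the 34368 different gene names of the array, 38 of them SLC25 carriers or uncoupling proteins and 20 of them TIMM or TOMM genes. These genes had 102 probes, with 1 probe for 34 genes and several for the other 24. MDCK is an established epithelial line from dog kidney, and MDCK-pTR GFP-RasV12 cells are MDCK cells in which tetracycline switches on GFP-tagged oncogenic RasV12. Such cells received tetracycline for 24 h on collagen, either in single culture (alone, 3 arrays) or mixed with untransformed MDCK cells (mixed, 3 arrays), and GFP-positive cells were then sorted by flow cytometry, so that all 6 arrays held RNA of sorted cells with RasV12 switched on. The labels give 10 MDCK cells for each RasV12 cell, except for mixed replicate 2, whose label gives 100. The protocol text for RNA extraction names cells that also carry a β-catenin mutant. The sample names and the data availability statement of the study describe cells without it, and its methods name both kinds. No source says whether replicates came from separate cultures, so p-values measure the spread between these arrays, which may be technical.

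SLC25 proteins carry metabolites, nucleotides, cofactors and ions across the inner membrane, which few solutes cross unaided. Nearly all mitochondrial proteins are made in the cytosol and enter through the TOM complex of the outer membrane. TIM23 then takes proteins with a cleavable presequence, pulled inward by a motor built on mitochondrial HSP70, while small TIM chaperones and TIM22 take the carriers themselves. Uncoupling proteins belong to the carrier family. In kidney tubule epithelium these systems serve cells with a high demand for ATP.

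All 3 alone arrays shared a slide and a scan, as did the 3 mixed arrays, so that slide and culture cannot be told apart. Signal at the 75th percentile was between 592 and 700 intensity units, and 60.8 to 66.4% of probes were well above background. Of 7 epithelial and kidney tubule markers all were well above background on every array and limma called 0 (2 at an unadjusted p under 0.05, also 2 by the methods' t-test). Of the markers of other cell types, 3 of 4 leukocyte, 2 of 3 endothelial and 1 of 3 fibroblast genes were bright enough to test, and limma called 0 (0 at an unadjusted p under 0.05, also by the methods' t-test). CD14, CD79A, PECAM1, KDR and COL1A1 were well above background on every array and CD3E on 5 of the 6, whereas PTPRC, CDH5, COL3A1 and PDGFRA were so on none. Summed intensity alone and mixed was 242 to 280 and 247 to 290 for the leukocyte list, 501 to 612 and 504 to 597 for the endothelial list, and 61.2 to 71.1 and 50 to 57.7 for the fibroblast list. Of 16 tested interferon-stimulated genes, 9 were called higher in mixed culture (median log2 difference 1.04), and 8 with the replicate number as a block. Untransformed MDCK cells share the epithelial markers. Of 10 Ras-MAPK output genes 3 were called lower in mixed culture (EPHA2, FOSL1 and CCND1, 30%, against 5.72% of all tested probes) and 0 higher. The median of the list was -0.50, with 7 differences below 0 and 3 above it (SPRY2 0.28, SPRED1 0.39 and ETV5 0.10). Summed intensity was between 75667 and 86184 in the alone arrays and between 61988 and 71698 in the mixed arrays. Most of that intensity was of DUSP6, which was not called (-0.19, adjusted p = 0.206, limma). With the replicate block CCND1 lost its call (adjusted p = 0.0631, limma), IER3 was called lower (0.0376) and SPRED1 higher (0.0490). The part of these lists in the results on carriers was not tested. In RNA of a sorted population, fewer cells of a kind and less RNA per cell cannot be told apart.

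The sequences of probes of 4 of the called carriers are given here, 5′ to 3′, because a reading rests on what its probe matches. The brightest probes of SLC25A11 and SLC25A12, at which these genes were read and called, are not printed. Positions are those of the array annotation on canFam3. SLC25A11, the oxoglutarate carrier, is shown at 3 of its 4 probes, at chr5:31679372-31679551, chr5:31679268-31679408 and chr5:31678300-31678359, all on the plus strand. The first and second of these share 37 bases, printed in capitals, and are therefore not independent readings. Their genomic spans of 180 and 141 bases exceed the 60 bases of a probe. SLC25A12, an aspartate-glutamate carrier, is shown at the dimmer of its 2 probes, at chr36:16215367-16215426 on the minus strand. SLC25A44, which carries branched-chain amino acids, has a single probe that spans 5469 bases at chr7:41654506-41659974 on the minus strand. UCP2, an uncoupling protein, has a single probe at chr21:24309751-24309810 on the plus strand.
SLC25A11, first probe: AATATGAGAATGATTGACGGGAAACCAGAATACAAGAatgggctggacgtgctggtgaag
SLC25A11, second probe: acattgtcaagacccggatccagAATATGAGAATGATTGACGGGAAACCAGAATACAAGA
SLC25A11, separate probe: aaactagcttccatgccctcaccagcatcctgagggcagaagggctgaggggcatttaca
SLC25A12, dimmer probe: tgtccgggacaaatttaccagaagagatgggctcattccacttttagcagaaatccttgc
SLC25A44: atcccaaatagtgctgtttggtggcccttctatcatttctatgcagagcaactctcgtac
UCP2: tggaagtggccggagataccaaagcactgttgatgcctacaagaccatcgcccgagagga

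Few of these genes changed in RasV12 cells among normal neighbours, and none by 2-fold. SLC25A12 rose, whereas SLC25A11, SLC25A17, SLC25A44, UCP2 and TOMM34 fell, by 1.31- to 1.65-fold. Levels are log2 of the processed signal minus the 75th percentile of the array, and a difference is the mean of the mixed arrays minus the mean of the alone arrays. A gene is called at an adjusted p under 0.05, from limma with Benjamini-Hochberg adjustment over all 26529 tested probes. Of the 58 genes, 53 could be tested and 6 of them were called (11.3%), against 11.2% of all tested probes. The share of called carrier and import genes was thus near that of the whole array. Of the 53 genes 1 was called higher, against 5.5% of all tested probes, and 5 were called lower, against 5.72% of all tested probes. With arrays scaled to the spike-in controls, 0 genes were called higher and 3 lower, and the whole array gave 287 higher and 662 lower calls in place of 1458 and 1517. That scaling moved the median of all tested probes to -0.17, and 13 of the 53 genes, none of them called, went from above to below 0. The calls vary with the arrays that are kept. Without alone replicate 2, alone replicate 3, mixed replicate 2 or mixed replicate 3, limma called 0 of the 53 genes (12 to 14 at an unadjusted p under 0.05). Without alone replicate 1 it called 13 (24.5%), and without mixed replicate 1 it called 4 (7.55%). Of all probes, 0.0263 to 0.09% were called in the first 4 of these settings, 26.4% without alone replicate 1 and 7.45% without mixed replicate 1. The calls also vary with the filter and the test. With all 6 arrays but no filter on dim probes, limma called 0 of 58 genes (13 at an unadjusted p under 0.05) and 0.0275% of probes. The methods' t-test with Benjamini-Hochberg adjustment called 1 of the 53 genes and 3.12% of probes.

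The median difference over the 53 genes was -0.05, against -0.0035 over all tested probes, with 23 genes above 0 and 30 below it. For 38 genes the difference was smaller than 0.25, and 3 genes passed 1.5-fold. The 95% interval of the difference lay within 2-fold in either direction for 52 genes and within 1.5-fold for 40. The median SD between replicates was 0.11 for these genes and 0.13 for all tested probes. All mixed arrays lay above all alone arrays for 7 genes (17.8% of all tested probes did so) and below them for 17 genes (19.3%), whereas the groups overlapped for the other 29. SLC25A18, SLC25A42 and SLC25A47 were not well above background on any array, and SLC25A23 and SLC25A27 were so on alone replicate 3 only, so that these 5 genes were not tested.

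**Figure D1:**
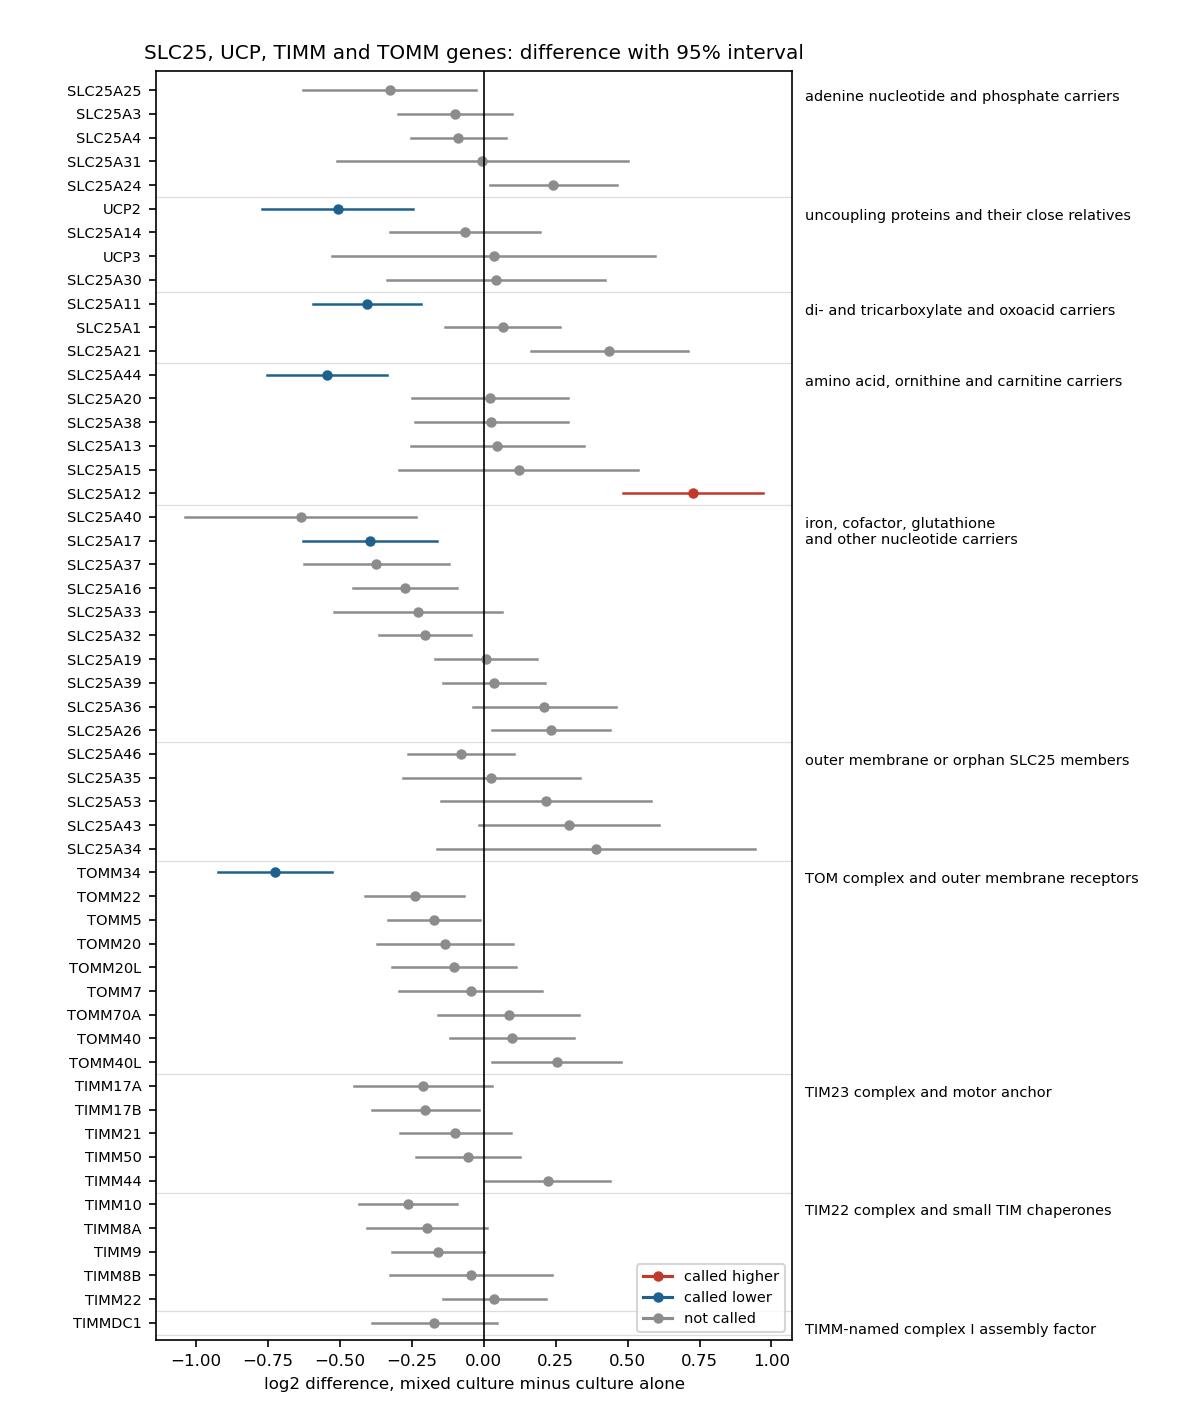
Log2 difference, mixed minus alone, of the 53 tested genes by role (points, with 95% intervals from limma, 3 arrays a group); colour marks genes called at an adjusted p under 0.05. SLC25A12 (0.73) stands at the right and TOMM34 (-0.73) at the left, and 47 genes are not called.

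Carriers of the malate-aspartate shuttle, which brings the reducing equivalents of cytosolic NADH into the matrix, changed in opposite directions. The level of SLC25A12, the calcium-regulated aspartate-glutamate carrier, was 1.53, 1.28 and 1.29 in the alone arrays and 2.02, 2.04 and 2.22 in the mixed arrays. Every mixed array was above every alone array, and the difference was 0.73 ± 0.10 (SE, 3 arrays a group, 1.65-fold, limma, adjusted p = 0.0176). Its second probe, printed above, read -3.26, -3.20 and -3.34 alone and -2.64, -2.80 and -2.48 mixed, a difference of 0.62 (adjusted p = 0.0198, limma).

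SLC25A11 exchanges oxoglutarate for malate in the same shuttle. Its level was 5.70, 5.53 and 5.53 in the alone arrays and 5.17, 5.23 and 5.14 in the mixed arrays, again without overlap. It fell by 0.41 ± 0.08 on the log2 scale (SE, 1.33-fold lower, adjusted p = 0.0295, limma), and all 4 probes were called, with differences from -0.41 to -0.32. The printed overlapping probes gave -0.32 and -0.35 and the remaining printed probe gave -0.41. With the replicate block the first printed probe lost its call (adjusted p = 0.0525, limma). SLC25A13, the other aspartate-glutamate carrier, had a difference of 0.05 ± 0.13 (95% interval -0.25 to 0.35) and was not called. The enzymes of the shuttle, added after values of these data had been seen, were not called by limma: the difference was -0.12 for MDH1 and -0.04 for GOT1, the cytosolic malate dehydrogenase and aspartate aminotransferase, and -0.27 (adjusted p = 0.0510) for MDH2 and -0.01 for GOT2, their mitochondrial counterparts. Both MDH1 and MDH2 were lower on every mixed array than on every alone array.

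**Figure D2:**
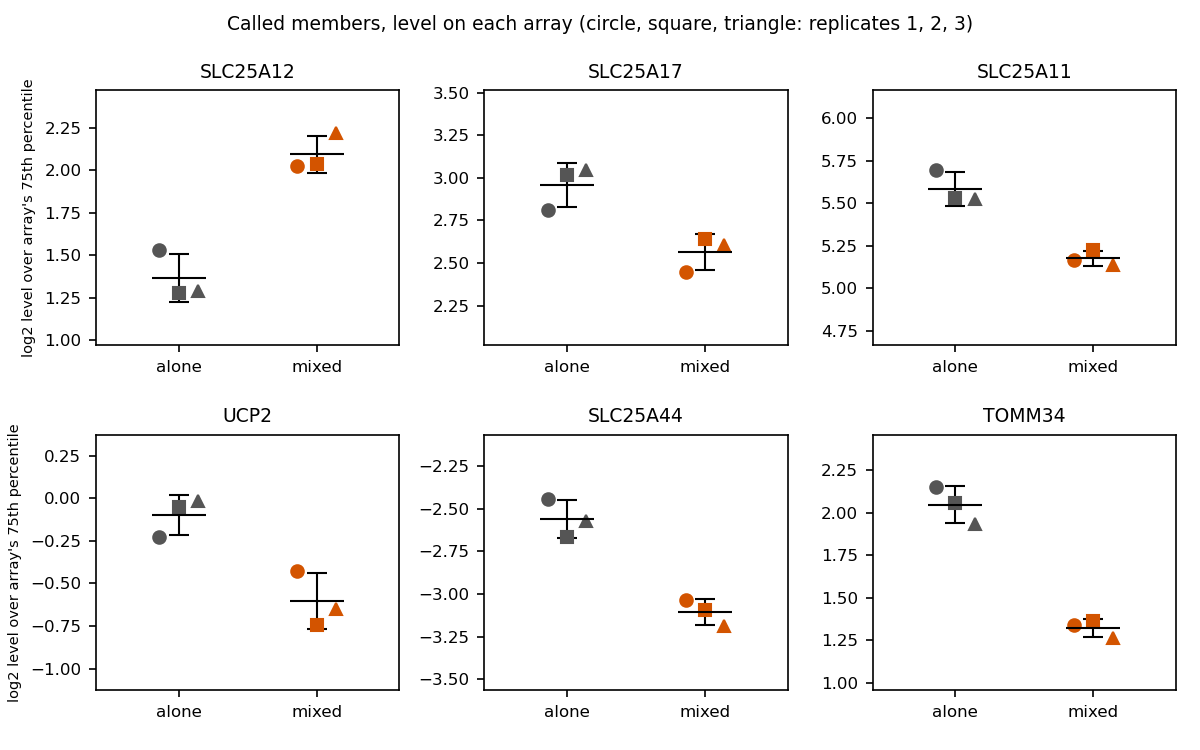
Level of the 6 called genes on each array, as log2 over the 75th percentile of the array, with the mean and SD of each group (3 arrays; circle, square and triangle are replicates 1, 2 and 3). Each panel spans the same number of log2 units, and in each the alone and mixed arrays do not overlap.

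Among the other carriers of amino acids and carnitine, SLC25A44 fell. Its level was -2.44, -2.66 and -2.57 in the alone arrays and -3.03, -3.09 and -3.19 in the mixed arrays, so that the highest mixed array was below the lowest alone array. The difference was -0.55 ± 0.09 (SE, 1.46-fold lower, adjusted p = 0.0201, limma). SLC25A15, the ornithine carrier of the urea cycle, SLC25A20, the carnitine-acylcarnitine carrier of fatty acid oxidation, and SLC25A38, a glycine carrier needed for haem synthesis, were not called, with differences of 0.12, 0.02 and 0.02.

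UCP2, which is reported to limit mitochondrial superoxide and to export C4 metabolites, had levels of -0.23, -0.05 and -0.01 in the alone arrays and -0.42, -0.74 and -0.65 in the mixed arrays. Mixed replicate 1 came closest to the alone arrays but did not overlap them. The difference was -0.51 ± 0.11 (SE, 1.42-fold lower, adjusted p = 0.0366, limma). With the replicate number as a block the call was lost (adjusted p = 0.0630). UCP3, a relative best known from muscle, was dim: it was well above background on 2 of 3 alone arrays and on all mixed arrays, with levels of -5.21, -4.30 and -4.91 alone and -4.84, -4.91 and -4.56 mixed. The groups overlapped, and the difference of 0.03 had a 95% interval from -0.53 to 0.59. SLC25A14 and SLC25A30, further relatives of the uncoupling proteins, had differences of -0.07 and 0.04 and were not called. The UCP2 and UCP3 probes lie 25839 bases apart on chromosome 21.

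The adenine nucleotide and phosphate carriers supply the ATP synthase with ADP and phosphate. None of 5 tested was called by limma (2 at an unadjusted p under 0.05, 0 by the methods' t-test). SLC25A3, the phosphate carrier, had a level of 6.70, 6.61 and 6.51 alone and 6.43, 6.59 and 6.51 mixed. The groups overlapped at this probe, and 6 probes of the gene gave differences from -0.12 to 0.08. SLC25A4, an ADP/ATP carrier, had a difference of -0.09 (95% interval -0.25 to 0.08) and values from -0.21 to -0.08 over its 4 probes. SLC25A25 and SLC25A24, calcium-regulated carriers of ATP-Mg and phosphate, had differences of -0.33 (adjusted p = 0.135, limma) and 0.24 (adjusted p = 0.132).

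Of the di- and tricarboxylate and oxoacid carriers, SLC25A11 alone was called. SLC25A1, the citrate carrier that feeds fatty acid synthesis, had a difference of 0.07 (95% interval -0.14 to 0.27). SLC25A21, the oxoadipate carrier of lysine breakdown, read -4.29, -4.01 and -3.88 alone and -3.67, -3.62 and -3.58 mixed. The mixed arrays were all above the alone arrays, with a difference of 0.44 ± 0.11 (SE) that missed the threshold (adjusted p = 0.0574, limma).

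In the group of iron, cofactor, glutathione and other nucleotide carriers, 10 were tested and SLC25A17 was called. SLC25A17 is a peroxisomal member of the family, which carries CoA, FAD and NAD. It read 2.81, 3.02 and 3.05 alone and 2.45, 2.64 and 2.61 mixed. The difference was -0.39 ± 0.10 (SE, 1.31-fold lower, adjusted p = 0.0488, limma), close to the threshold. Its other 4 probes gave -0.27 to -0.41 and were not called (2 of them were with the replicate block, adjusted p = 0.0484 and 0.0445, limma), although the groups did not overlap at any of the 5. The remaining 2 of the 4 share 20 bases and are therefore not independent readings.

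SLC25A40, a carrier of glutathione, read -0.65, -0.04 and -0.10 alone and -0.98, -0.84 and -0.88 mixed. Alone replicate 1 stood below the other alone arrays. The difference of -0.64 ± 0.17 (SE) missed the threshold without the replicate block (adjusted p = 0.0582, limma) and passed it with the block (0.0456). A dimmer tested probe of the gene gave -0.36, with overlap of the groups, and was called in neither fit (adjusted p = 0.128, and 0.0747 with the block). SLC25A39, its closest relative, had a difference of 0.04 (95% interval -0.14 to 0.21). SLC25A37 (mitoferrin-1), which brings iron into the matrix, read 0.70, 1.00 and 0.93 alone and 0.39, 0.55 and 0.58 mixed. Its difference was -0.37 ± 0.11 (SE, adjusted p = 0.0680, and 0.0463 with the replicate block, limma). SLC25A16, linked to CoA in the matrix, had -0.27 at its brightest probe (adjusted p = 0.0634) and -0.34 at a dimmer probe that was called (adjusted p = 0.0490, and 0.0562 with the replicate block, limma).

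Among the members of the outer membrane or without a settled substrate, limma called 0 of 5 at the brightest probe of each gene. At these probes 0 had an unadjusted p under 0.05, also by the methods' t-test. SLC25A34, an orphan carrier, read -4.33, -4.65 and -4.94 alone and -3.83, -4.31 and -4.61 mixed. The groups overlapped, while in each pair of equal replicate number the mixed array was higher, and the difference of 0.39 had an adjusted p of 0.297 without and 0.0472 with the replicate block (limma). SLC25A46, an outer membrane protein of mitochondrial dynamics, differed between its probes: the brightest gave -0.08 and was not called, whereas the dimmest gave -0.35 (adjusted p = 0.0297, and 0.0515 with the replicate block, limma).

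**Figure D3:**
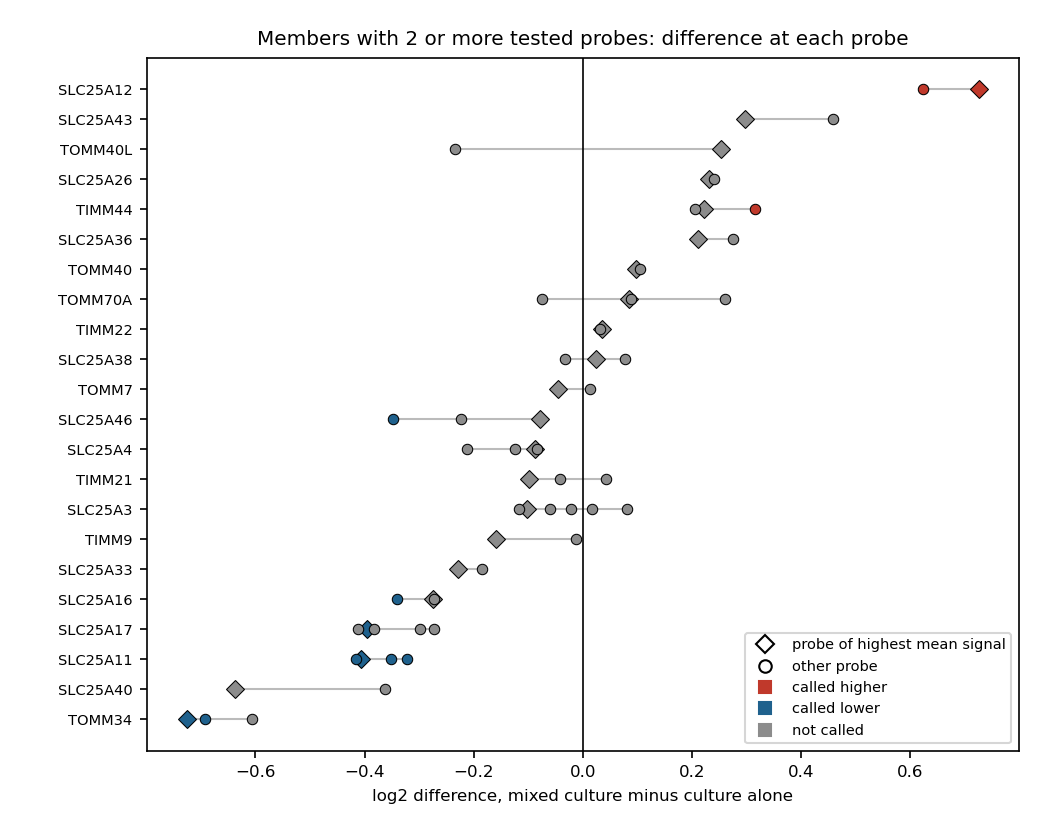
Log2 difference, mixed minus alone, at every probe of the 22 genes with 2 or more tested probes; diamonds are the probes of highest mean signal, and colour marks calls. For 16 genes all tested probes have the same sign, while TOMM40L has 0.25 at one probe and -0.23 at the other.

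In the import machinery, TOMM34 was called and the other 19 TIMM and TOMM genes were not (7 of the 20 had an unadjusted p under 0.05). TOMM34 is a cytosolic protein that binds HSP70 and HSP90 and keeps precursors fit for import. It is not a subunit of the TOM pore. Its level was 2.15, 2.06 and 1.94 in the alone arrays and 1.34, 1.36 and 1.26 in the mixed arrays. The spread within each group was small beside the gap between them, and the difference was -0.73 ± 0.08 (SE, 1.65-fold lower, adjusted p = 0.0131, limma). A second probe, which shares 32 bases with the first, gave -0.69 and was called, and another, which shares none, gave -0.61 and was not (adjusted p = 0.0807).

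For the subunits of the TOM complex the differences were small. TOMM22, its central receptor, read 3.19, 3.05 and 3.11 alone and 2.87, 2.84 and 2.92 mixed, a difference of -0.24 without overlap of the groups that was not called (adjusted p = 0.0786, limma). TOMM20, which binds presequences, and TOMM70A, which binds carriers and other precursors with internal signals, had -0.13 (95% interval -0.37 to 0.10) and 0.09 (-0.16 to 0.33). The 4 tested probes of TOMM70A disagreed in sign, from -0.07 to 0.26, and none was called. TOMM40, the pore itself, had 0.10 (95% interval -0.12 to 0.31). The small subunits TOMM5 and TOMM7 had -0.17 and -0.04, and quantile normalization turned the sign of TOMM7. For TOMM40L, a paralogue of the pore, the 2 probes disagreed in sign, with 0.25 and -0.23, and neither was called.

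The TIM23 complex moves presequence proteins through the inner membrane. None of its 5 tested genes was called by limma (2 at an unadjusted p under 0.05, 1 by the methods' t-test). TIMM17A and TIMM17B, alternative channel subunits, had differences of -0.21 and -0.20, with the mixed arrays below the alone arrays for both. TIMM50, the receptor, and TIMM21 had -0.05 and -0.10. TIMM44, which tethers the motor to the channel, had 0.22 (4.22, 3.95 and 4.02 alone, 4.28, 4.34 and 4.24 mixed, adjusted p = 0.152, limma), and a dimmer probe with 0.32 was called (adjusted p = 0.0460, and 0.0556 with the replicate block).

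Carriers themselves are inserted by TIM22 after escort by small TIM chaperones. Of these 5 genes, limma called 0 (1 at an unadjusted p under 0.05, 2 by the methods' t-test). TIMM10 read 3.59, 3.53 and 3.64 alone and 3.33, 3.38 and 3.26 mixed, a difference of -0.26 that missed the threshold (adjusted p = 0.0616, limma). Its partner TIMM9 had -0.16 and the related chaperone TIMM8A had -0.20, and in both the groups did not overlap, although at a dimmer TIMM9 probe, with -0.013, they did. TIMM8B had -0.04, with a sign that quantile normalization turned, and TIMM22, the channel, had 0.04 (95% interval -0.14 to 0.22). TIMMDC1 carries the name but is an assembly factor of respiratory complex I. Its difference was -0.17 (adjusted p = 0.246).

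Over the 20 TIMM and TOMM genes, 15 differences were below 0 and the median was -0.12, whereas over the 33 tested SLC25 and UCP genes 15 were below 0 and the median was 0.02. The median of all tested probes was -0.0035. The called share was 5.0% of the 20 genes and 15.2% of the 33, beside 11.2% of all probes, and the difference between these shares was not tested.

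Partners of import that the naming rule leaves out were read in the same way. Of the listed genes 18 were found on the array by name, and all 18 were tested. Only 6 of 8 listed for the presequence motor and 3 of 4 listed for the SAM complex were found. Of the 18, 5 were called lower in mixed culture (27.8%, against 5.72% of all tested probes) and 0 higher, and 14 differences were below 0 (median -0.14). The list was chosen with earlier results of these data known, and the difference between these shares was not tested. The called genes were PAM16, GRPEL1, GRPEL2, CHCHD4 and PMPCB. The count was 0 without alone replicate 2, without alone replicate 3, without mixed replicate 2 or without mixed replicate 3 (6 to 8 of the 18 at an unadjusted p under 0.05, limma), 2 without mixed replicate 1, 3 with the replicate block and 2 with spike-in scaling. It was 7 without alone replicate 1 and with normexp background correction, and 0 without a filter on dim probes (8 at an unadjusted p under 0.05).

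The presequence motor held 3 of the 5. PAM16, which regulates the J protein of the motor, read 5.17, 5.01 and 5.01 alone and 4.46, 4.61 and 4.48 mixed. Its difference was -0.55 ± 0.08 (SE, 1.46-fold lower, adjusted p = 0.0193, limma), without overlap of the groups. With the mean over the probes of a gene PAM16 lost its call, and GFER, described below, was called instead. GRPEL1 and GRPEL2 release ADP from mitochondrial HSP70, and their differences were -0.44 (adjusted p = 0.0439) and -0.46 (adjusted p = 0.0232, limma). HSPA9, the HSP70 itself, had -0.25 (adjusted p = 0.148), and DNAJC19 and ROMO1 had -0.05 and -0.0010. All 6 values of this list were below 0, although those of DNAJC19 and ROMO1 were smaller than their SE (0.09 for each).

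CHCHD4, the oxidase that traps small TIM proteins in the intermembrane space, read 0.87, 0.94 and 0.98 alone and 0.68, 0.58 and 0.63 mixed. Its difference of -0.31 was called (adjusted p = 0.0429, limma) but not with the replicate block (0.0658). GFER, which reoxidizes CHCHD4, had -0.37 (adjusted p = 0.0673). PMPCB, a subunit of the peptidase that removes presequences, read 3.54, 3.59 and 3.58 alone and 3.26, 3.29 and 3.26 mixed, with a difference of -0.30 (adjusted p = 0.0351, and 0.0562 with the replicate block, limma). PMPCA, the other subunit of this peptidase, had 0.01 (95% interval -0.30 to 0.32). Of MTX1, MTX2 and MTX3 of the SAM complex, which inserts outer membrane barrels, limma called 0 (0 at an unadjusted p under 0.05, also by the methods' t-test).

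**Figure D4:**
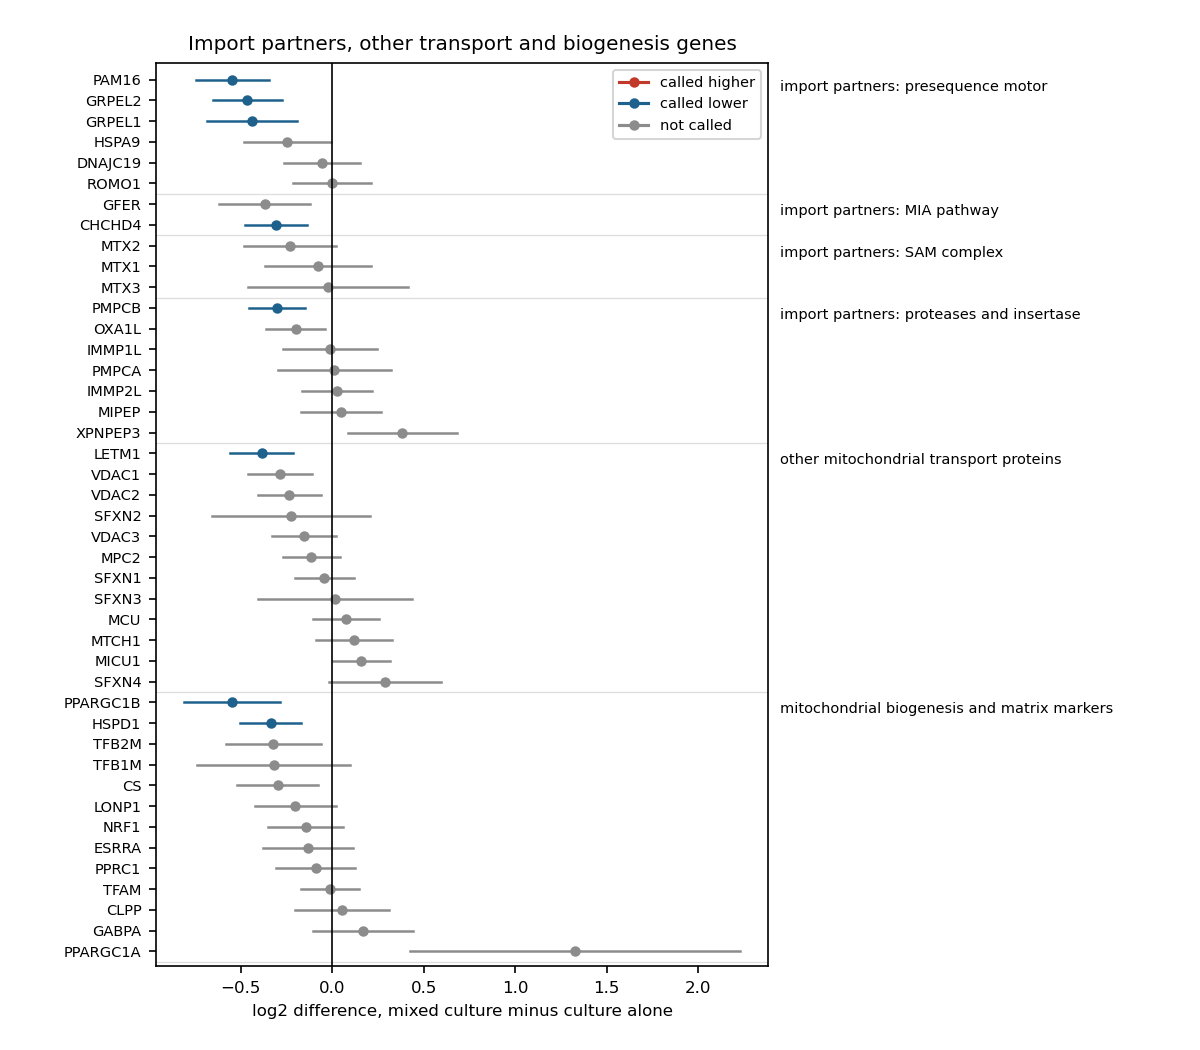
Log2 difference, mixed minus alone, with 95% intervals (limma, 3 arrays a group) for tested import partners, other transport proteins and biogenesis or matrix genes. PAM16 (-0.55), GRPEL2 (-0.46) and GRPEL1 (-0.44) are called lower, and the widest interval belongs to PPARGC1A (1.33), which is not called.

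Other transport proteins of the mitochondrion gave 1 call among 12 tested, a lower one (8.3%, against 5.72% of all tested probes called lower). LETM1, a cation exchanger of the inner membrane, had -0.39 (adjusted p = 0.0263, limma), with 1.62, 1.62 and 1.66 alone and 1.31, 1.16 and 1.27 mixed. VDAC1, the main metabolite pore of the outer membrane, had -0.28 and missed the threshold (adjusted p = 0.0558). Of 13 tested biogenesis and matrix genes, 2 were called lower (15.4%, against 5.72% of all tested probes). They were PPARGC1B, a coactivator of mitochondrial biogenesis, with -0.55 (adjusted p = 0.0312, limma), and the chaperonin HSPD1 with -0.34 (adjusted p = 0.0334, and 0.0529 with the replicate block, limma). PPARGC1A, the related coactivator, read -2.49, -1.99 and -1.83 alone and -1.64, -0.29 and -0.40 mixed. Its difference of 1.33 ± 0.38 (SE) had an adjusted p of 0.0683 without and 0.0338 with the replicate block (limma). Citrate synthase (CS), often used as a measure of mitochondrial content, had -0.30 (adjusted p = 0.0845), and TFAM, which packages mitochondrial DNA, had -0.01 (95% interval -0.17 to 0.15).

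The 6 called genes kept their sign under all 16 alternatives of processing and of arrays, while the calls varied. The kept sign says little. The replicate block, the t-tests and the filters on dim probes leave the difference unchanged. The groups of these genes do not overlap, so leaving out an array could hardly turn the sign. TOMM34 was called in 11 of the 16, SLC25A44 in 10, SLC25A11 and SLC25A12 in 9 each, UCP2 in 8 and SLC25A17 in 6. Each of these counts includes the methods' t-test without adjustment, where a call is an unadjusted p under 0.05. The value of SLC25A12 ranged from 0.56 to 0.81 and that of TOMM34 from -0.89 to -0.67. That of SLC25A11 ranged from -0.57 to -0.33, that of UCP2 from -0.67 to -0.40 and that of SLC25A17 from -0.56 to -0.34. SLC25A44 ranged most widely, from -0.71 to -0.26, the latter with normexp background correction.

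**Figure D5:**
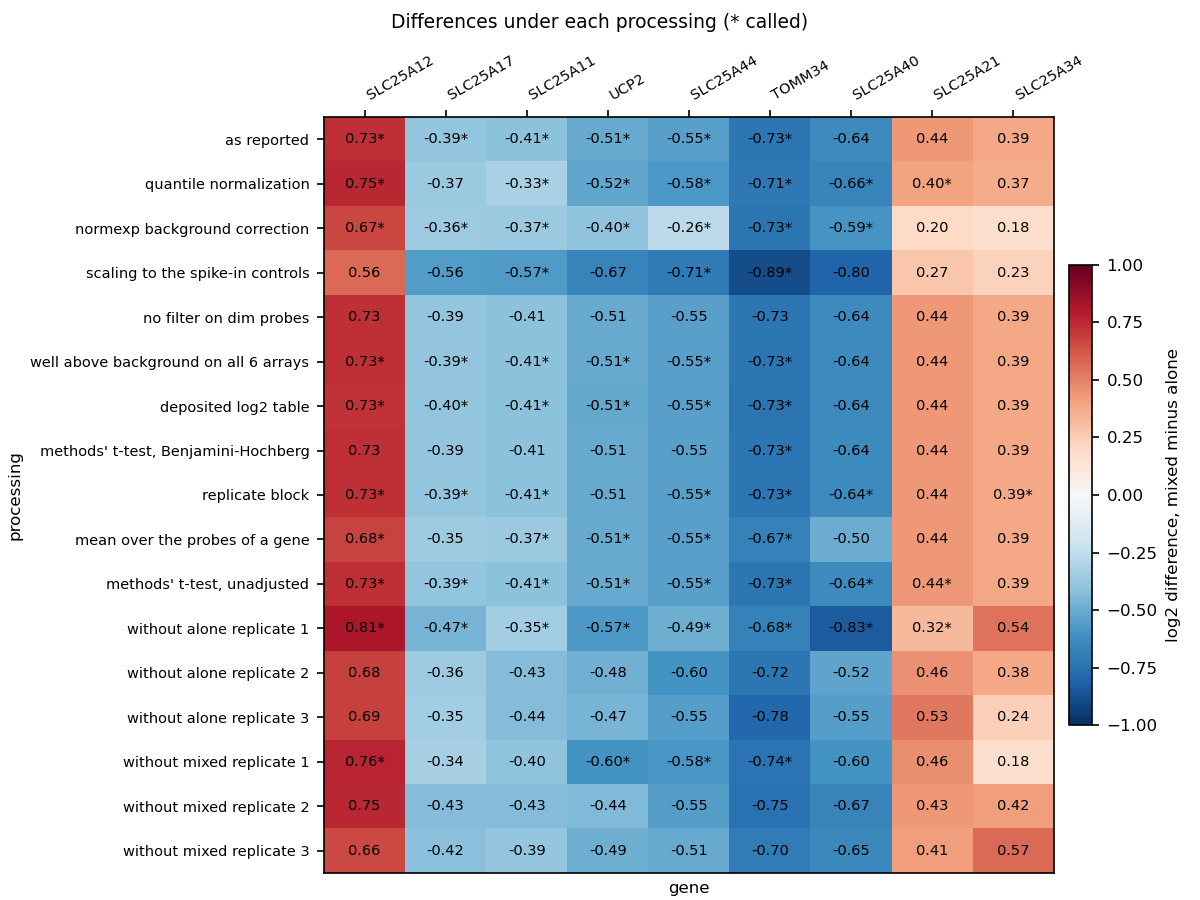
Log2 difference, mixed minus alone, of the 6 called genes and of SLC25A40, SLC25A21 and SLC25A34 (columns) as reported and under 16 alternatives (rows). A star marks a call, which in the row of the unadjusted t-test is an unadjusted p under 0.05. The sign is the same down each column, and stars are missing from the 9 genes in the rows without alone replicate 2 or 3 and without mixed replicate 2 or 3.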

How the data were processed

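RNA of sorted GFP-positive cells was hybridised to 6 single-colour (Cy3) Agilent canine arrays. Per the file headers, spot intensity was read with Agilent Feature Extraction 10.10.1.1, which subtracted background and spatial trends. The authors deposited this processed intensity per spot, not scaled between arrays, and a log2 table of 26529 probes, which matches log2 of the processed intensity minus the 75th percentile of the array to within 0.077. The array annotation is on canFam3.

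Spots flagged as outliers were left out, spots of a probe were averaged, and log2 intensity minus the 75th percentile of each array was compared between groups with limma 3.58.1 (R 4.3.3; lmFit and eBayes, two-sided, Benjamini-Hochberg). A probe entered the test if every array of a group, alone or mixed, had it well above background. Of 43603 probes, 12 lacked a value on some array and were left out. The number of arrays limits the precision. An exact permutation test of 3 against 3 arrays cannot give a p below 0.1 and was not used. The limma steps were tested on simulated data.

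Arrays of equal replicate number, which is also the position on the slide, deviated together from their group means (correlations 0.349, 0.162 and 0.296; -0.329 to 0.238 for unequal numbers), so the fit with the replicate number as a block is given where it changes the call of a gene in the text. The alternatives were quantile normalization, normexp background correction (offset 50), 8 spike-in controls as the scale, other filters on dim probes, the deposited log2 table, the unpaired two-tailed t-test that the study used ("the methods' t-test"), the replicate block, the mean over the probes of a gene, and leaving out each array.

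The genes and lists were chosen with earlier results of these data known. Genes are named if called, if UCP2 or UCP3, if of largest difference or highest signal in their role group, if their probes disagree, or if dim in a single group. Genes of the partner, transport and biogenesis lists are named if called. SLC25A4, SLC25A13, SLC25A37, the further subunits and the uncalled genes of the other lists were named after their values were seen.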

Additional observations from a re-analysis of the deposited data

How the results depend on the processing

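Grouped by setting, the counts that left their range of 1.5 times were as follows, for carrier and import genes called higher (1 as reported) and lower (5), for import partners called lower (5), and for all probes called higher (1458) and lower (1517). Quantile normalization called 2 genes higher, and normexp called 9 lower and 7 partners. Spike-in scaling called 0 higher and 3 lower, 2 partners, and 287 and 662 probes, with a median over the genes of -0.22. Without a filter on dim probes limma called 0 genes higher and 0 lower (13 at an unadjusted p under 0.05), 0 partners (8 at an unadjusted p under 0.05), and 6 and 6 probes. The methods' t-test with Benjamini-Hochberg adjustment called 0 higher, 1 lower, 2 partners, and 327 and 502 probes. Unadjusted it called 4 and 14 genes and 3433 and 3874 probes. The replicate block called 2 genes higher (SLC25A12 and SLC25A34) and 6 lower, and 3 partners. Beyond the calls given beside their genes it changed no other call among the genes of the 58. Leaving out each array gave 0 to 6 genes higher, 0 to 7 lower, 0 to 7 partners, 5 to 3500 probes higher and 2 to 3832 lower, and a median between -0.10 and -0.03. The cause of these shifts was not tested. The alternatives for the partners were chosen after seeing the data.

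Over the 53 tested genes the sign changed for 13 with spike-in scaling, all from above to below 0, for 5 with quantile normalization, for 1 with normexp and for 2 to 7 leaving out each array, and limma called 0 of these as reported or in that setting. Spike-in scaling lowered all differences together, with the median of all probes at -0.17 in place of -0.0035. The named genes among them were as follows. SLC25A38 was -0.14 with spike-in scaling, and from -0.055 to 0.14 leaving out each array. UCP3 was -0.13 with spike-in scaling, and from -0.17 to 0.29 leaving out each array. TIMM8B was 0.0076 with quantile normalization, and from -0.11 to 0.051 leaving out each array. TOMM7 was 0.022 with quantile normalization, and from -0.11 to 0.057 leaving out each array. SLC25A14 was from -0.12 to 0.034 leaving out each array. A block for slide was not run, because no slide held arrays of both groups. The median 95% half-width of 0.22 limits what could be called.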

Other observations

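The array holds 12 further probes whose description, but not whose gene name, points to a carrier or import gene. Of these, 9 were tested and limma called 0 (1 at an unadjusted p under 0.05, 2 by the methods' t-test). A probe described as SLC25A6, an ADP/ATP carrier, had a difference of 0.26 ± 0.08 (SE, adjusted p = 0.0779, limma). A brighter probe described as SLC25A6 had 0.17 (adjusted p = 0.215, limma), with overlap of the groups. For TIMM23, the channel of the TIM23 complex, 2 probes so described had -0.14 and -0.12.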
